A study of Mus musculus with 42 samples.

Results

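The 8 epithelial keratin genes Krt7, Krt8, Krt18, Krt19, Krt20, Krt23, Krt36 and Krt80 were followed through the crypts and tumors of mouse colon. They were chosen by gene symbol and are 8 of the 20462 genes listed in these RNA-seq tables, which also hold 39 other keratin genes. The 42 libraries fell into 14 conditions from C57/BL6 mice at least 8 weeks old. Mice lacking the transcriptional corepressor MTG16 (Mtg16-/-) and mice homozygous for the point mutation P209T (T/T), which weakens the contact between MTG16 and E proteins, came from independent colonies of heterozygous parents, and each mutant was set against WT littermates of its own colony. Crypts were freed by chelation and shaking from 5 cm of proximal colon, measured from the cecum, or 5 cm of distal colon, measured from the anus. At baseline, the proximal groups held 2 WT and 2 Mtg16-/- libraries in the null colony and 2 WT and 2 T/T libraries in the T/T colony. The distal groups held 4 WT and 4 Mtg16-/- libraries and 3 WT and 4 T/T libraries. After 5 days of 2% dextran sulfate sodium (DSS), which injures the distal epithelium, and 4 days of recovery, distal crypts gave 3 WT and 4 Mtg16-/- libraries and 3 WT and 3 T/T libraries. Tumors of 3 WT and 3 T/T mice followed 10 mg/kg of the carcinogen azoxymethane (AOM) and 3 cycles of 3% DSS, and were dissected whole, so that they included stroma where the crypt preparations mostly did not. Neither mutation was limited to the epithelium.

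Keratins are the intermediate filament proteins of epithelial cells, and a filament is built from pairs of a type I and a type II chain. Simple epithelia such as the colon rely on the type II chain Krt8 with its type I partners Krt18 and Krt19, and Krt20 is added as colonocytes leave the crypt and differentiate. Krt7 is a type II chain of ducts and of glandular and transitional epithelia. Krt23 is a small type I chain found in some glandular epithelia, Krt36 belongs by sequence to the hair-type type I keratins, and Krt80 is a type II chain of differentiating epithelial cells. In bulk RNA, fewer cells of a type cannot be told apart from less RNA in each cell.

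In the GRCm38 (mm10) build used by the authors, the type II genes lie on chromosome 15 and the type I genes on chromosome 11, except that the type I gene Krt18 sits among the type II genes. On chromosome 15 the order was Krt80 (101347444 to 101370162), Krt7 (101411043 to 101430313), Krt8 (101996698 to 102004482, minus strand) and Krt18 (102028180 to 102032027, plus strand), and 23.7 kb separated Krt8 from Krt18. On chromosome 11 the order was Krt20 (99428403 to 99438150), Krt23 (99477974 to 99493137), Krt36 (100102007 to 100105626) and Krt19 (100140810 to 100148665). Krt20 and Krt23 were 39.8 kb apart and Krt23 and Krt36 608.9 kb apart.

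RefSeq promoter windows of 250 bases before and 50 bases after the gene start were found for 6 of the 8 genes. Because the P209T mutation concerns E proteins, which bind the E box, 4 windows are printed. They are those of the partners Krt8 and Krt18, and of Krt23 and Krt36 on chromosome 11. The mean of Krt23 was lower in the mutant in each of 7 tables. Capitals mark matches, on either strand, to the E box, AP-1 site, TATA box, GC box or CDX site.
Krt8, chr15:102004293-102004592, minus strand: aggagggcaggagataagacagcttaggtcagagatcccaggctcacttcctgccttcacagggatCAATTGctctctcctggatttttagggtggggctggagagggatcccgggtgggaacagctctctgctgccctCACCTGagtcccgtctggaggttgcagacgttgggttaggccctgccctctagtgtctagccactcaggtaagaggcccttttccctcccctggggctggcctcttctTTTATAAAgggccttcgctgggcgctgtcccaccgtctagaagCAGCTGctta
Krt18, chr15:102027966-102028265, plus strand: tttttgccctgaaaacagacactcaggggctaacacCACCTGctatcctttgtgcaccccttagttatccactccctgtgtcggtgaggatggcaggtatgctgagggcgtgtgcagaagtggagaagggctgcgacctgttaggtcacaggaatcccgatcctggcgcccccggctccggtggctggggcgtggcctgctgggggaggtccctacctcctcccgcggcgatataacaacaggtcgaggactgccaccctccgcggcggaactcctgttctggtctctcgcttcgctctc
Krt23, chr11:99493071-99493370, minus strand: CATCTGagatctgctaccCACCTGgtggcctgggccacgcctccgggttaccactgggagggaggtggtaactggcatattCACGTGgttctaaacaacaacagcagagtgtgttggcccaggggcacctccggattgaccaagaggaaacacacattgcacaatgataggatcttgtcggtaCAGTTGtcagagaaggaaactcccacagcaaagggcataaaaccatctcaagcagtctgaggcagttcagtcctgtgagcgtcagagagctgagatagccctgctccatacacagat
Krt36, chr11:100105577-100105876, minus strand: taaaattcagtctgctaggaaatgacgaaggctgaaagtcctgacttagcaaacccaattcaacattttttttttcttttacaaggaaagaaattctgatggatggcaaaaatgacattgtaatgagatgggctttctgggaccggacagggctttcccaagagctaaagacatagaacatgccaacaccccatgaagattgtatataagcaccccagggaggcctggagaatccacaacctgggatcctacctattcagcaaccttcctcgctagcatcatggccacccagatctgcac
The Krt23 window held 4 E boxes, the Krt8 window 3, the Krt18 and Krt7 windows 1 each, and the Krt20 and Krt36 windows 0. The E box was searched as CANNTG, which 72.3% of all 32544 promoter windows hold at least once. The share of windows with 3 or 4 matches was not computed. The TATA box was searched as TATAAA, held by 13.6% of windows, and matched in the Krt8 window, where 2 matches on opposite strands overlap, and in the Krt20 window. There it overlaps a match to the CDX site, searched as TTTATNG and held by 10.8% of all windows. The Krt7 window held 4 GC boxes, searched as GGGCGG and present in 35.9% of windows. The AP-1 site, searched as TGANTCA and present in 7.79% of windows, was in 0 of the 6 windows. The Krt36 window held 0 matches to any of these motifs and was 44.7% G or C, against 53.0% for Krt23, 58.0% for Krt8 and 61.3% for Krt18. A match describes letters only and is not evidence that a factor binds, and the RefSeq start lay 1360 bases from the GENCODE start for Krt7, 140 for Krt8 and 0 to 36 for the other 4 genes.

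The reads could be recovered from the normalized counts of 38 libraries, which held 32231389 to 74661887 gene-assigned reads (median 46659625.5). The 5 general epithelial markers summed to 3920 to 7144 CPM (counts scaled to the same library total) in every library, so the labelled epithelium was present throughout, and markers of fibroblasts summed to 0.50 to 78.7 CPM in crypts and 2634 to 3607 CPM in tumors. The mutated gene is listed as Cbfa2t3, and its level in Mtg16-/- distal crypts was 9.69 to 24.0 CPM at baseline (23.0 to 39.0 CPM in WT) and 7.48 to 11.2 CPM after DSS (33.1 to 46.5 CPM in WT). The baseline ranges of mutant and WT overlapped. Of the Mtg16-/- distal baseline libraries, replicate 2 stood apart, with 11545 CPM of surface colonocyte markers against 2013 to 3290 CPM in the other WT and Mtg16-/- libraries of that table. Proximal crypts of all groups held 12535 to 16831 CPM of the same markers, so that this library, labelled distal, lay nearer to the proximal than to the distal range. A set of stratified squamous markers summed to 3.20 to 5.60 CPM in baseline crypts and 4.38 to 7.74 CPM in the T/T colony after DSS, but to 249 to 835 CPM in the 7 null-colony DSS libraries and 77.6 to 988 CPM in tumors. Its part in any keratin difference was not tested.

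Krt8 and Krt19 supplied most keratin RNA in crypts. On the scale of CPM per kilobase of transcript, mean levels ran Krt8, Krt19, Krt20, Krt18, Krt7, Krt23, Krt36, Krt80 from high to low in 10 of the 14 conditions. Neighbours in that order did not always separate: the libraries of Krt8 and Krt19 overlapped in 5 conditions, those of Krt20 and Krt18 in 4, and those of Krt23 and Krt36 in 5, counting either order. Krt19 was above Krt20 without overlap in all 12 conditions in which they were neighbours, and Krt7 was above Krt23 in all 12 in which they were. In WT distal crypts of the null colony, Krt8 measured 6844 ± 109 CPM (SD, n = 4), Krt19 4080 ± 152, Krt20 1064 ± 142, Krt18 482 ± 33.8, Krt7 150 ± 6.88, Krt23 8.66 ± 0.85, Krt36 2.70 ± 0.29 and Krt80 0.72 ± 0.34 CPM. The levels therefore span the main filament chains and genes with very few reads. In the 4 WT proximal libraries, whose reads were recovered, Krt36 rested on 8 to 21 reads and Krt80 on 9 to 31. The lengths behind the per-kilobase values of Krt7 and Krt80 depend on the transcript chosen.

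**Figure D1:**
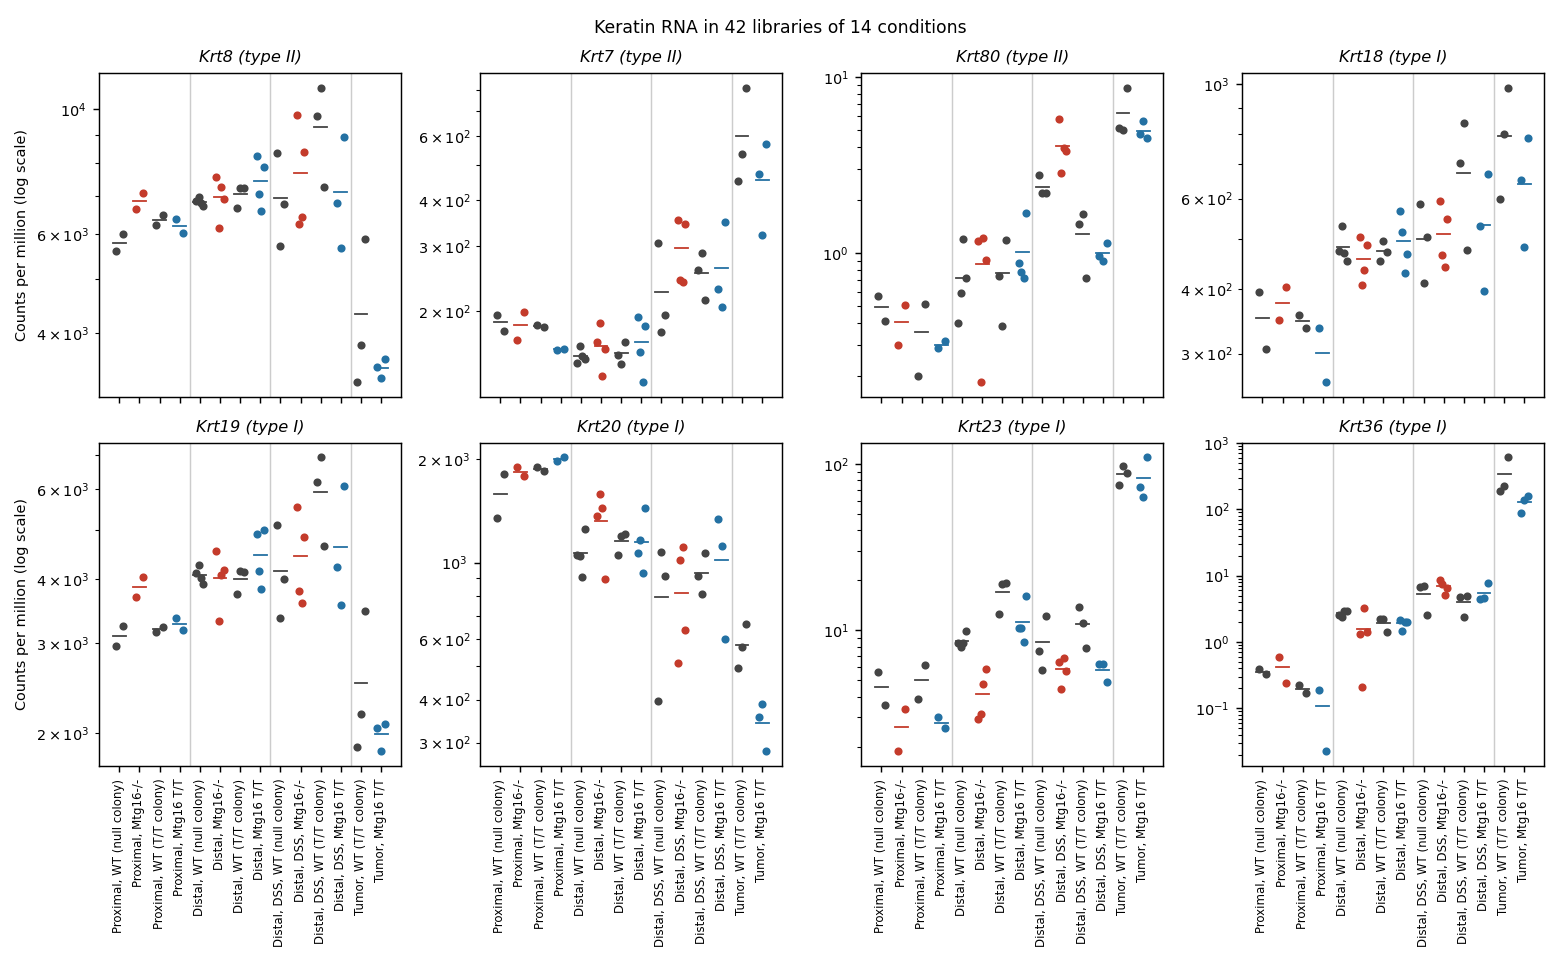
Level of each keratin in 42 libraries (CPM, log axis), 1 point per library, with bars at the mean of each of 14 conditions; black, WT; red, Mtg16-/-; blue, T/T. Krt36 and Krt23 sit higher in all 6 tumors than in any of the 36 crypt libraries, while Krt8 stays between 3279 and 10885 CPM. The share of all genes that separate in this way was not computed.

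The type I and type II sums stayed close to each other. Per kilobase, type I over type II was 0.831 to 1.06 in the 36 crypt libraries (median 0.989) and 1.03 to 1.17 in the 6 tumors (median 1.12). The make-up within each class moved more than the balance between them. Krt8 exceeded Krt18 by 10.4 to 16.7 times in proximal crypts, 9.65 to 12.4 times in distal baseline crypts and 9.40 to 12.1 times after DSS, but by 3.36 to 5.08 times in tumors. Within type I, Krt20 supplied 24.4 to 32.2% in proximal crypts, 13.5 to 25.6% in distal baseline crypts, 5.34 to 18.6% after DSS and 6.72 to 12.6% in tumors. The 25.6% belonged to Mtg16-/- distal replicate 2, and the next distal library was at 20.5%. Krt18 supplied 5.64 to 10.8% of type I in crypts and 18.3 to 25.0% in tumors. Krt7 supplied 0.864 to 1.94% of type II in crypts and 4.41 to 7.04% in tumors. Salmon shares reads among similar transcripts, and 941 bases of Krt8 match the pseudogene Krt8-ps at 98.6% and 1269 bases of Krt18 match Gm5200 at 90.2%. Neither pseudogene is listed in these tables, so a transfer of reads in either direction could not be seen.

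**Figure D2:**
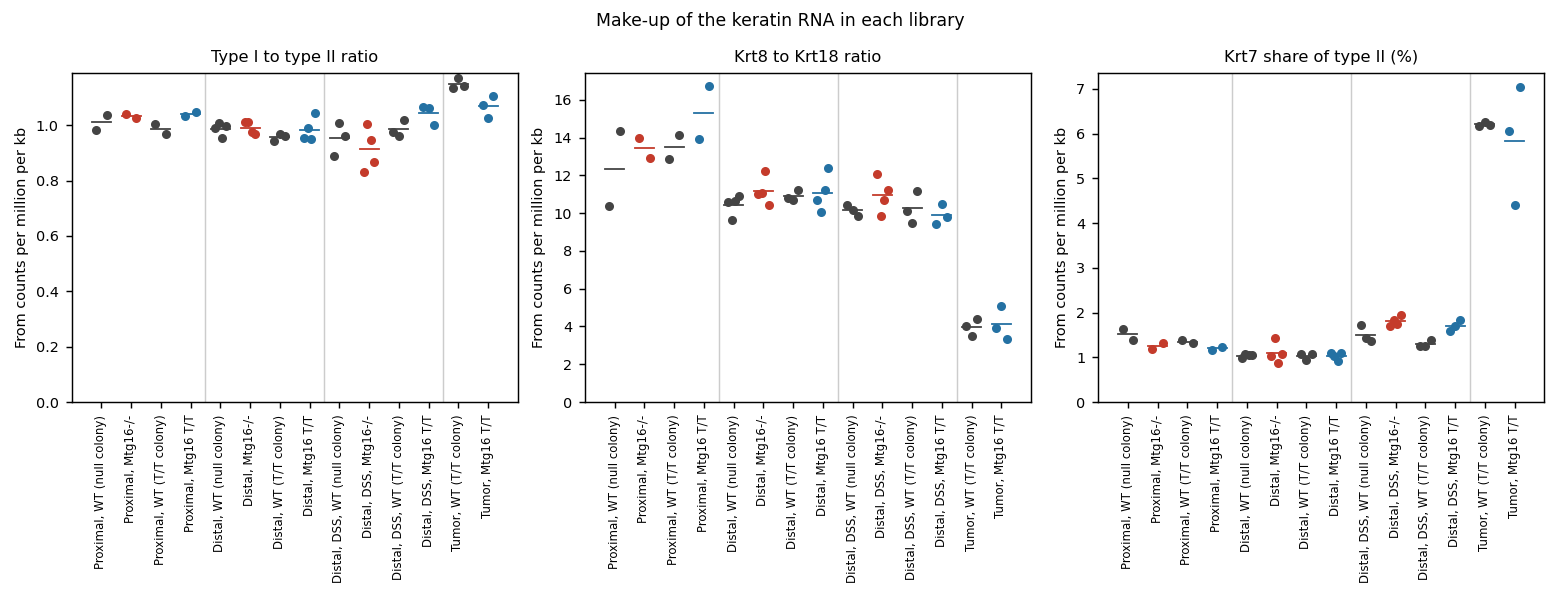
Make-up of keratin RNA in each library from CPM per kb: type I to type II ratio, Krt8 to Krt18 ratio, and Krt7 as percent of type II, with points for libraries and bars for condition means (black, WT; red, Mtg16-/-; blue, T/T). The first panel stays between 0.831 and 1.17, while the tumors sit apart from all crypts in the other panels (3.36 to 5.08 for Krt8 over Krt18, 4.41 to 7.04% for Krt7).

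To determine how keratin expression differed along the WT colon, 7 distal and 4 proximal WT libraries of both colonies were compared at baseline. Krt36, Krt23, Krt18 and Krt19 were higher in distal crypts, and Krt20 and Krt7 were higher in proximal crypts. These 6 of 8 genes passed an adjusted p of 0.05 by limma on log2(normalized count + 1), where 42.1% of all 13841 genes tested did. The background was thus high in both directions, with 20.1% of genes higher and 22% lower in distal crypts.

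Krt36, the hair-type chain, measured 10.3, 7.73, 16.7 and 15.5 normalized counts in the 4 proximal libraries and 63.5 to 136 (median 105) in the 7 distal libraries. The groups did not overlap, and the fitted level on the log2(normalized count + 1) scale was 7.96-fold higher in distal crypts (log2 difference 2.99 ± 0.25, SE, limma adjusted p = 4.31e-07). Krt23 measured 181, 281, 242 and 168 normalized counts in proximal and 350 to 857 in distal libraries (log2 difference 1.25 ± 0.26, adjusted p = 0.0017). The filament partners moved less. Krt18 was 14490 to 17158 normalized counts in proximal and 19204 to 23453 in distal libraries (log2 difference 0.42 ± 0.07, adjusted p = 0.00021), and Krt19 was 128355 to 153491 and 158044 to 188690 (0.32 ± 0.09, adjusted p = 0.013). Both also separated completely between segments.

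Krt20, the chain of differentiated colonocytes, went the other way. It measured 88081, 84174, 58297 and 85706 normalized counts in proximal libraries and 39320 to 58580 in distal libraries, a log2 difference of -0.68 ± 0.13 (limma adjusted p = 0.00081). The single overlap came from null-colony WT proximal replicate 1. Krt7 was 8230 to 8527 normalized counts in proximal and 6278 to 7354 in distal libraries, a narrow but complete separation (log2 difference -0.32 ± 0.06, adjusted p = 0.00039). Krt8 (0.15 ± 0.11, adjusted p = 0.28) and Krt80 (0.71 ± 0.37, adjusted p = 0.14) did not pass. Of the 8 genes, 5 did not overlap between the segments, compared with 30.0% of all genes tested.

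Markers of other cell states also differed between the segments. The surface colonocyte list summed to 12535 to 16732 CPM in WT proximal and 2013 to 3290 CPM in WT distal crypts, the goblet list to 6541 to 8728 and 11163 to 19565 CPM, and leukocyte markers to 52.2 to 75.9 and 12.2 to 28.8 CPM. The sums did not speak for all members: in distal crypts 3 of 6 surface colonocyte genes were called higher and 3 lower (median log2 difference -0.16), 3 of 5 goblet genes higher and 2 lower (0.81), and 1 of 6 leukocyte genes higher and 3 lower (-1.32). Their part in the keratin differences was not tested. Only 1 sequencing request held both segments, and all 8 directions were kept within it, but Krt36 alone passed there; with the request as a covariate, Krt36 (2.97), Krt18 (0.40) and Krt7 (log2 difference -0.32) passed.

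Genes that anchor or cap keratin filaments were examined beside the keratins. Of 17 partners tested, 8 were higher and 3 lower in distal crypts, with a median log2 difference of 0.11 against 0.00 over all genes. The cytolinkers envoplakin (Evpl, 1.42), epiplakin (Eppk1, 1.20) and plectin (Plec, 0.61), the desmosomal plakophilin Pkp1 (0.65) and desmoplakin (Dsp, 0.45) were among those higher. Dystonin (Dst, -0.72), desmocollin 2 (Dsc2, -0.60) and plakophilin 2 (Pkp2, -0.26) were lower there. Among 10 other keratins tested, Krt78 (3.39) and Krt13 (2.58) were higher and Krt222 (-3.78) and Krt90 (-2.73) lower in distal crypts. Of 5 other intermediate filament genes tested, the nuclear lamin Lmna (1.15) was higher and vimentin (Vim, -1.43), the filament of mesenchymal cells, lower.

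**Figure D3:**
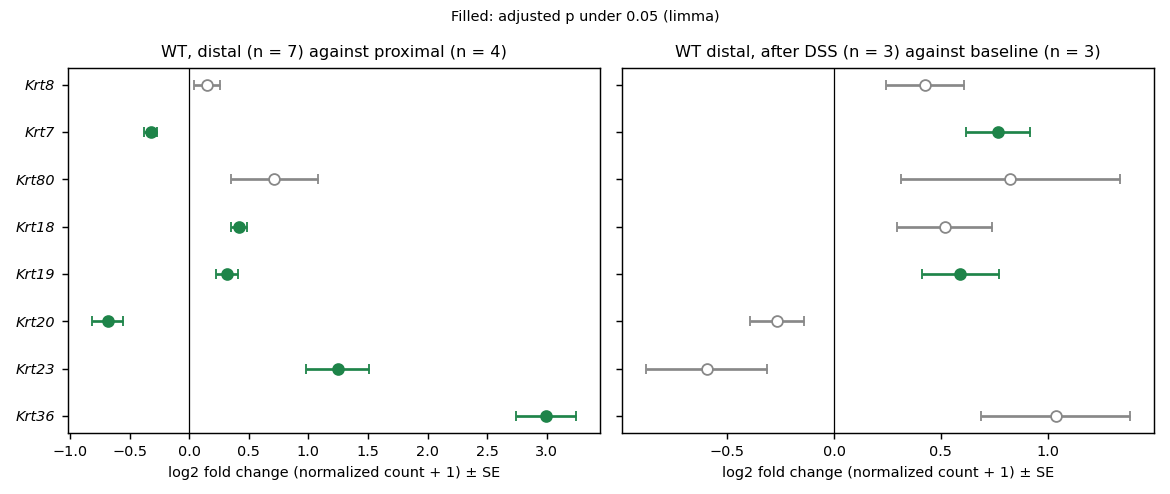
Log2 fold changes of the 8 keratins ± SE, WT distal (n = 7) against proximal (n = 4) libraries on the left and WT distal after DSS (n = 3) against baseline (n = 3) on the right; filled points passed an adjusted p of 0.05 by limma. Krt36 has the widest segment difference (2.99), and 2 keratins, Krt7 and Krt19, passed after DSS.

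The response to injury was examined in WT distal crypts of the T/T colony, 3 libraries at baseline and 3 after DSS and recovery. Krt7 and Krt19 rose after DSS, 2 of 8 keratins, where 35.6% of 13566 genes passed (14% higher and 21.6% lower). The split of all calls depended on the tool, with 1897 genes higher and 2936 lower by limma and 2178 higher and 2194 lower by edgeR on the recovered reads. Krt7 measured 6968, 6743 and 7836 normalized counts at baseline and 12532, 14229 and 10173 after DSS (log2 change 0.77 ± 0.15, SE, limma adjusted p = 0.015). Krt19 measured 172441, 195015 and 196719 at baseline and 299694, 342645 and 220203 after DSS (0.59 ± 0.18, adjusted p = 0.044). For both genes every DSS library lay above every baseline library.

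Krt8 and Krt36 also did not overlap between the groups, so that 4 of 8 keratins were separated, compared with 55.3% of all genes tested. Krt8 measured 307738, 340188 and 344325 normalized counts and then 471246, 538487 and 344510 (log2 change 0.43 ± 0.18, limma adjusted p = 0.10), and Krt36 measured 102, 105 and 67.7 and then 234, 116 and 233 (1.04 ± 0.35, adjusted p = 0.057). DSS replicate 3 lay just above the highest baseline library for Krt8, and DSS replicate 2 was nearest to baseline for Krt36. Krt36 passed with edgeR (adjusted p = 0.045) and DESeq2 (adjusted p = 0.013) on the recovered reads. Krt18 (0.52, adjusted p = 0.11), Krt80 (0.82, adjusted p = 0.23), Krt20 (-0.27, adjusted p = 0.14) and Krt23 (-0.60, adjusted p = 0.13) did not pass by limma.

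The calls rested on single libraries. Without DSS replicate 3, 7 of 8 keratins passed, in a fit where 9086 of all 13573 genes tested did. Krt20 was among them as lower (log2 change -0.35, limma adjusted p = 0.019), and Krt23 did not pass. Without baseline replicate 1, baseline replicate 2 or DSS replicate 1, 0 passed, and without baseline replicate 3, 1 did; over the same fits the count of all genes called ran from 1 to 9086. The baseline and DSS libraries came from different sequencing requests, so that DSS and request cannot be told apart here. The crypt base and cycling list summed to 608 to 1046 CPM at baseline and 198 to 281 CPM after DSS, but 2 of its 7 genes were called lower, and its median log2 change was -0.14. The goblet list summed to 11163 to 14057 and 21176 to 23488 CPM, with 3 of 5 genes called higher (median 1.05). The general epithelial markers summed to 5557 to 5964 CPM at baseline and 6673 to 7144 CPM after DSS, with 2 of 5 called higher and a median log2 change of 0.37, and fibroblast markers to 0.95 to 2.38 and 2.97 to 7.34 CPM. The part of these lists in the keratin changes was not tested.

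Of the 17 filament partners, 6 rose and 5 fell after DSS, with a median log2 change of -0.02 against 0.00 over all genes. Epiplakin (Eppk1, 1.03), plectin (Plec, 0.98), plakoglobin (Jup, 0.79) and Fam83h (0.68), which links casein kinase to keratin filaments, were among those higher. Pof1b (-3.42), the spectraplakins Macf1 (-1.95) and Dst (-1.48) and the kinase Csnk1a1 (-0.94) were among those lower. Of 9 other keratins tested, Krt90 (1.89), Krt14 (1.71), Krt84 (1.27) and Krt87 (0.82) were higher and Krt78 (-0.76) lower. Of 5 other intermediate filament genes, 0 passed by limma (1 at an unadjusted p under 0.05), edgeR or DESeq2.

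In the null colony, baseline and DSS libraries were scaled in different tables and were not tested against each other. In WT distal crypts of that colony, mean Krt7 was 150 ± 6.88 CPM (n = 4) at baseline and 226 ± 71.3 CPM (n = 3) after DSS, and mean Krt36 was 2.70 ± 0.29 and 5.34 ± 2.45 CPM. Krt80 was 0.72 ± 0.34 and 2.38 ± 0.33 CPM there, compared with 0.77 ± 0.40 and 1.28 ± 0.50 CPM in WT of the T/T colony. Mean Krt19 was 4080 ± 152 and 4156 ± 879 CPM there, compared with 4007 ± 230 and 5915 ± 1167 CPM in WT of the T/T colony. The other null-colony WT means moved from 6844 to 6947 CPM for Krt8, 482 to 501 for Krt18, 1064 to 794 for Krt20 and 8.66 to 8.48 for Krt23.

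To determine whether loss of MTG16 or its uncoupling from E proteins altered keratin expression, mutant and WT littermate libraries were compared in 7 tables that share no library with each other, although their WT baseline libraries and the T/T colony's WT DSS libraries also entered the comparisons above. By limma, 0 keratins passed an adjusted p of 0.05 in any table, 8 of the 55 keratin tests had an unadjusted p under 0.05, and edgeR called 0 and DESeq2 called 2 on the recovered reads. The background was low as well. It was 0.0645% of genes for Mtg16-/- proximal, 0.239% for Mtg16-/- distal, 0.629% for Mtg16-/- distal after DSS, 0.232% for T/T proximal, 0.0369% for T/T distal, and 0% for both T/T distal after DSS and T/T tumors. Over all genes, 392 to 1796 per table had an unadjusted p under 0.05, and DESeq2 on the recovered reads called 24 to 727 genes in the 5 distal and tumor tables, edgeR 0 to 87.

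Krt23 had a lower mean in the mutant in 7 of 7 tables, although in tumors its log2 difference turned to 0.023 without T/T replicate 2, and 1.55% of the 12815 genes tested in all tables were likewise lower in each. No other keratin kept its direction in all tables: the remaining genes were lower in 3 or 4 of 7, and for each of them the sign changed in 1 or more tables when single libraries were left out. In distal crypts at baseline, Krt23 measured 392, 359, 374 and 474 normalized counts in WT and 133, 143, 209 and 269 in Mtg16-/- libraries. The groups did not overlap, which held for 1.17% of genes in that direction, and the log2 difference was -1.13 ± 0.23 (SE), 2.19-fold lower on that scale (unadjusted limma p = 0.0011, adjusted p = 0.14, exact permutation test, two-sided, p = 0.0286, the smallest that 4 against 4 allows). DESeq2 on the recovered reads called the difference (log2 difference -1.07, adjusted p = 0.0032), and edgeR did not (adjusted p = 0.19). Within the 2 sequencing requests of this table the log2 difference was -0.82 and -1.43. Without Mtg16-/- replicate 2, the library near the proximal range of surface colonocyte markers, it was -1.02 (limma adjusted p = 0.12).

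In the T/T colony, Krt23 in distal baseline crypts was 499, 784 and 790 normalized counts in WT and 393, 411, 339 and 661 in T/T libraries (log2 difference -0.63 ± 0.26, limma adjusted p = 0.86). The T/T replicate 4 lay within the WT range. The summed goblet markers separated between these libraries, at 11163 to 14057 CPM in WT and 14186 to 16270 CPM in T/T, although the median log2 difference of the 5 goblet genes was -0.06. Their part was not tested. After DSS, Krt23 was 728, 594 and 394 in WT and 293, 312 and 251 in T/T libraries, without overlap (-0.96 ± 0.28, limma adjusted p = 0.38), and DESeq2 gave an adjusted p of 0.069. Such separation held for 8.02% of genes in that direction, and the exact permutation test, two-sided, gave p = 0.1, the smallest that 3 against 3 allows. Markers of other cells separated between the same libraries, with 21176 to 23488 CPM of goblet markers in WT and 13382 to 13751 CPM in T/T, and 11.3 to 21.8 and 30.7 to 37.3 CPM of leukocyte markers. General epithelial markers separated as well, at 6673 to 7144 CPM in WT and 6067 to 6638 CPM in T/T. The median log2 differences of these lists were -0.69 (goblet), 1.22 (leukocyte) and -0.17 (epithelial). Their part in the Krt23 difference was not tested.

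In the null colony after DSS, Krt23 was 431, 320 and 657 normalized counts in WT and 368, 235, 380 and 328 in Mtg16-/- libraries, with overlap (log2 difference -0.48 ± 0.28, limma adjusted p = 0.56). The labels name no animal, but same-numbered libraries deviated together in these same data and were taken as pairs. On that reading, Krt23 was lower in the Mtg16-/- library of each of the 3 pairs. With the number as a block, which leaves Mtg16-/- replicate 4 without a partner, the log2 difference was -0.49 (limma adjusted p = 0.12). Leukocyte markers separated here too, at 22.3 to 51.5 CPM in WT and 71.3 to 237 CPM in Mtg16-/- libraries. By limma, 1 of 6 leukocyte genes (Lyz2, log2 difference 3.29) and 1 of 6 surface colonocyte genes (Guca2a, 1.16) were called higher. The only ileal marker tested, Fabp6, was called lower (-1.39). The part of these markers was not tested.

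In proximal crypts, Krt23 was 261 and 179 normalized counts in WT against 90.6 and 166 in Mtg16-/- libraries (log2 difference -0.81 ± 0.37, limma adjusted p = 0.85). In the other colony it was 176 and 270 in WT against 132 and 116 in T/T libraries (-0.81 ± 0.26, limma adjusted p = 0.32). Neither pair of groups overlapped, as for 18.1% and 22.9% of genes in that direction, and 2 against 2 libraries cannot reach a permutation p below 0.333. Summed surface colonocyte markers were lower in Mtg16-/- (12997 to 13662 CPM, WT 14572 to 16732) and higher in T/T proximal crypts (14974 to 16831 CPM, WT 12535 to 13568), with median log2 differences of -0.26 and 0.31. Summed goblet markers were higher in both mutants (9417 to 11457 CPM, WT 6959 to 8728, and 7369 to 7765 CPM, WT 6541 to 6949), but the median over the 5 goblet genes had the opposite sign (log2 difference -0.52 and -0.32). The groups did not overlap in these sums, and their part was not tested. In tumors, Krt23 was 3641, 4678 and 4430 in WT and 3524, 3081 and 5233 in T/T libraries, groups that overlapped (-0.14 ± 0.20, limma adjusted p = 1.00). With WT replicate 3 and T/T replicate 2 left out, the tumors highest in squamous markers, it was 0.057. Of the 47 keratin differences of effect between pairs of these tables, such as baseline against DSS or null against T/T, 0 passed an adjusted p of 0.05 and 2 had an unadjusted p under 0.05, neither for Krt23.

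**Figure D4:**
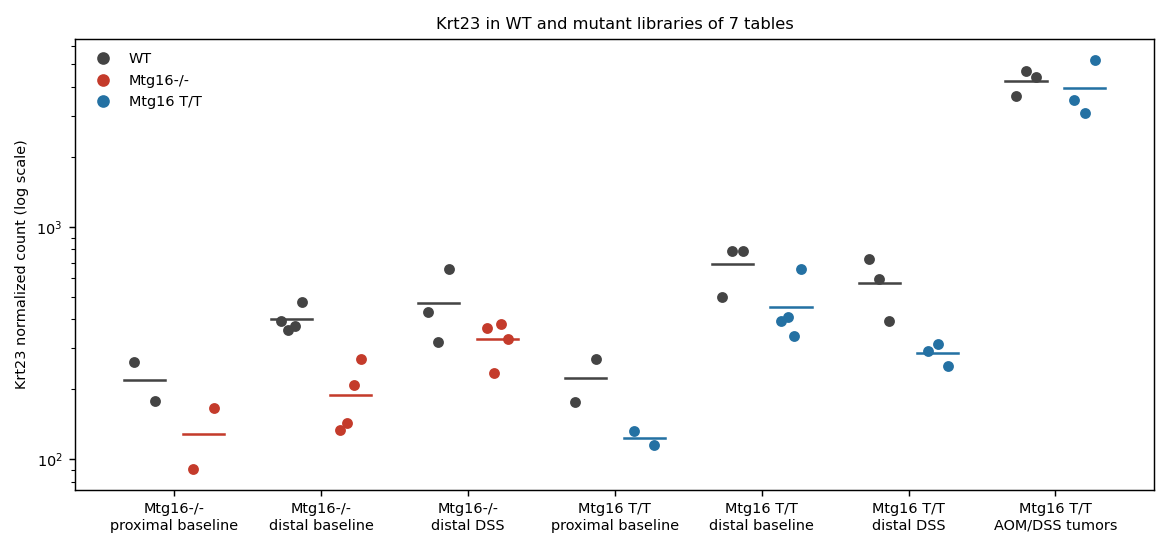
Krt23 normalized counts (log axis) in the WT (black), Mtg16-/- (red) and T/T (blue) libraries of 7 tables, each scaled on its own, with bars at group means. The mutant mean is the lower in 7 of 7 tables, in tumors only while T/T replicate 2 is kept, and the groups do not overlap in 4 of the 6 crypt tables.

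The other keratins showed no difference that passed in crypts. Krt36 in distal baseline crypts was 117, 108, 133 and 140 normalized counts in WT and 60.3, 9.42, 142 and 65.4 in Mtg16-/- libraries (log2 difference -1.33 ± 0.69, limma adjusted p = 1.00). The lowest value belonged to replicate 2, the library with high surface colonocyte markers, and without it the log2 difference was -0.58. After DSS, Krt80 was 158, 122 and 119 in WT and 327, 150, 221 and 217 in Mtg16-/- libraries (0.74 ± 0.29, limma adjusted p = 0.32). Squamous markers summed to 249 to 395 CPM (median 262) in these WT and 313 to 835 CPM (median 484) in these Mtg16-/- libraries, with a median log2 difference of 0.73 over the 10 genes tested, and their part in the Krt80 difference was not tested. Krt8, Krt18 and Krt19 differed by at most 0.47 on the log2 scale in any of the 7 tables, and that value, for Krt8 after DSS in the T/T colony, came from groups that overlapped (512257, 580618 and 363751 normalized counts in WT against 318787, 279418 and 459056 in T/T).

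**Figure D5:**
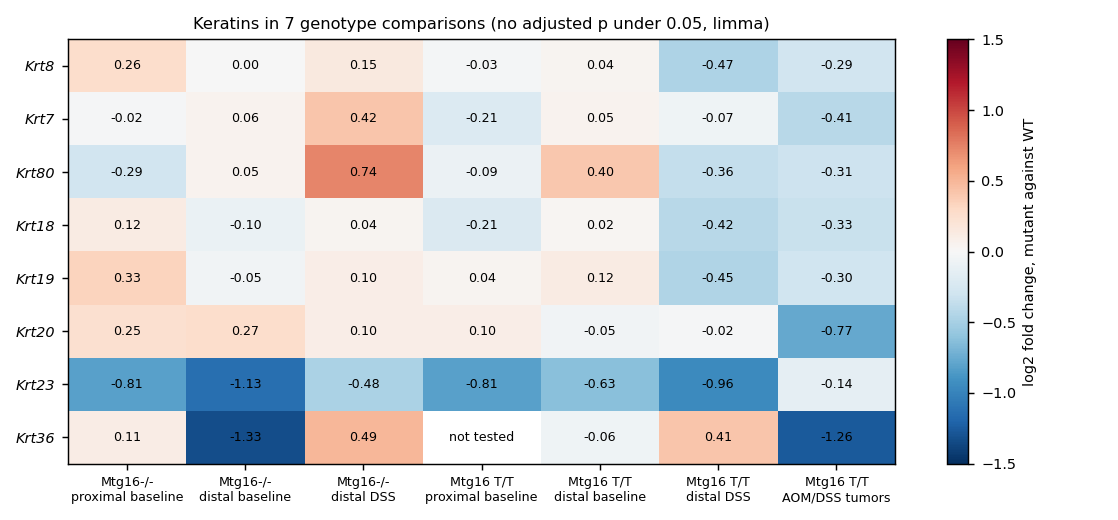
Log2 fold change, mutant against WT, of the 8 keratins in 7 genotype tables (color scale and printed values); Krt36 was not tested in T/T proximal crypts because its mean fell under 10 normalized counts. The Krt23 row runs from -1.13 to -0.14, and 0 of the values passed an adjusted p of 0.05 by limma.

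Of the filament partners, 0 of 119 tests over the 7 tables passed by limma (12 at an unadjusted p under 0.05), and edgeR called 0 and DESeq2 1, for envoplakin (Evpl). Of the other keratins, 0 of 86 tests passed (12 unadjusted, edgeR 0, DESeq2 3, for Krt84 and Krt90). Of the other intermediate filament genes, 0 of 39 tests passed (4 unadjusted, edgeR 0, DESeq2 1, for Vim). Over all genes, limma called 91 in Mtg16-/- distal crypts after DSS and 33 at baseline. Leaving out 1 library moved the DSS count to between 28 and 106, and the baseline count to 143 without Mtg16-/- replicate 2 and to between 2 and 10 without any other. In the DSS table, with the replicate number as a block, 1271 genes and 0 keratins passed, with adjusted p = 0.071 for Krt80 and 0.087 for Krt7 by limma.

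In tumors, Krt20 was 23950, 27359 and 33209 normalized counts in WT and 17263, 18914 and 13438 in T/T libraries. The groups did not overlap, as for 2.53% of genes in that direction (log2 difference -0.77 ± 0.17, 1.71-fold lower on that scale, limma adjusted p = 1.00). The exact permutation test gave p = 0.1, again the smallest possible. DESeq2 called it (adjusted p = 0.015) and edgeR did not (adjusted p = 1). Krt36 was 9019, 10769 and 30441 in WT and 4271, 6645 and 7541 in T/T libraries, also without overlap (log2 difference -1.26 ± 0.44, limma adjusted p = 1.00). The highest Krt36 was in WT replicate 3, which with T/T replicate 2 had the most squamous marker RNA, 988 and 771 CPM against 77.6 to 133 CPM in the other tumors. With both left out, an alternative chosen after seeing the data, the log2 difference of Krt20 was -0.75 and that of Krt36 -0.80.

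Tumors and crypts were prepared differently and scaled in different tables, so their levels are given side by side without a test. Krt36 was 88.1 to 608 CPM in tumors (median 172) and 0.0224 to 8.71 CPM in the 36 crypt libraries (median 2.28), so that the lowest tumor was 10.1 times the highest crypt library. Krt23 was 63.4 to 110 CPM in tumors (median 81.8) and 1.87 to 19.2 CPM in crypts (median 6.38). The other keratins overlapped between tumors and crypts. The share of all genes that separated in this way was not computed, so the separation cannot be read as particular to these keratins. The tumor median was higher for Krt80 (5.72 times), Krt7 (2.77 times) and Krt18 (1.53 times) and lower for Krt8 (0.518 times), Krt19 (0.509 times) and Krt20 (0.397 times).

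The make-up of the tissue differed over the same samples. General epithelial markers summed to 3920 to 4847 CPM in tumors and 4612 to 7144 CPM in crypts, surface colonocyte markers to 119 to 267 and 836 to 16831 CPM, and leukocyte markers to 331 to 699 and 11.3 to 237 CPM. Smooth muscle markers reached 2009 CPM in T/T tumor replicate 2. The part of non-epithelial RNA in the lower Krt8, Krt19 and Krt20 values was not tested. Within the keratins alone, Krt36 made up 2.59 to 9.97% of type I RNA in tumors and at most 0.138% in crypts, and Krt23 1.55 to 3.22% and at most 0.341%.

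Over the means of the 14 conditions, which share sequencing requests and include tumor and crypt preparations, the levels of the keratins were correlated pair by pair as a description. Krt8 and Krt19 followed each other closely (Pearson r = 0.97, n = 14 conditions). Krt36 and Krt7 (r = 0.93), Krt36 and Krt80 (0.92) and Krt36 and Krt23 (0.91) also varied together, each with a higher median in tumors than in crypts. For Krt8 and its partner Krt18, r was -0.24 with the tumors included. Tumors held the lowest mean Krt8 (3474 CPM in T/T and 4325 CPM in WT), with Krt18 at 640 and 795 CPM. Among crypt conditions, both genes were highest in WT of the T/T colony after DSS (9287 and 674 CPM). No r was computed for crypts alone. Among 10835 genes with enough RNA to compare, the genes closest to each keratin were Krt19 for Krt8 (r = 0.97), Cd82 for Krt19 (0.98), Scarb1 for Krt18 (0.97), Gm21885 for Krt20 (0.96), Krt84 for Krt7 (0.98), Ptges for Krt23 (0.98), Aldh1a3 for Krt36 (0.99) and Krt13 for Krt80 (0.98).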

How the data were processed

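RNA-seq of colon crypts and tumors was analysed from 9 tables with 59 library columns of 42 libraries. Per the paper's methods and the labels, the authors trimmed reads with fastp 0.20.0, quantified them with Salmon 1.3.0 against GENCODE M21 (GRCm38), summed transcripts to genes with tximeta, omitted genes with 1 count or fewer and ran DESeq2 1.26.0 in R 3.6.3. The deposited values are a signal, normalized counts (estimated counts divided by 1 size factor per library), and the authors scaled each table on its own. The authors' mean, fold change and p-value columns were not used.

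Comparisons were made only within a table. The test was limma 3.58.1 (R 4.3.3) with a trend on log2(normalized count + 1), two-sided, on genes whose table mean reached 10 normalized counts. P-values were adjusted over every gene tested (Benjamini-Hochberg, threshold 0.05). Fold changes on this scale understate those of low genes. CPM is the normalized count over the sum of its library, and levels between tables are a description. In 7 tables the values were whole multiples of 1 read (100% of values within 0.1 of a whole number), and edgeR 4.0.16 and DESeq2 1.42.0 were run on the recovered reads as alternatives. In the 2 proximal mutant tables reads were not recovered, so the depth of their 4 mutant libraries is unknown. Other alternatives were a pseudocount of 0.1, no filter, TMM scaling, the replicate number as a block, the sequencing request as a covariate or stratum, and leaving out each library. The tests were checked on simulated counts with a single fixed dispersion and no batch or deviating library. That check does not cover the dependence on single libraries seen here. Effects in different tables were compared by the difference of their log2 fold changes over the root of the summed squared SE.

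The 8 keratins and all gene lists were chosen with earlier results of these data known. Other keratins and intermediate filament genes were named where they passed the test, and filament partners named were picked, after their values were seen, from those that passed. The labels give replicate numbers but no animal, so p-values measure the spread between these libraries. Libraries of a group were never identical (59 pairs, chi-square per gene at least 15.4). Numbers were taken to pair libraries where a table held at least 3 same-numbered pairs and every pair deviated together with a correlation over 0.1. Of the tables with 3 or more pairs, this held for Mtg16-/- distal crypts after DSS (0.554, 0.460 and 0.317). The pairing was thus read from the same data, and libraries with different numbers were not correlated for comparison. With 2 pairs, as in both proximal mutant tables (0.147 in each), it was not applied. Similar transcripts were searched with blastn 2.17.0+. Promoter sequences are from RefSeq (GRCm38.p6).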

Additional observations from a re-analysis of the deposited data

Results flagged for a closer look

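In 3 of the 48 groups of 4 to 10 libraries tested, the highest or lowest library lay farther from the rest than Dixon's 95% limit allows, and chance alone gives such a gap in about 1 of 20 groups. Krt20 was 58297 normalized counts in null-colony WT proximal replicate 1, below the other 3 proximal WT libraries. Krt80 was 69.4 normalized counts in T/T distal baseline replicate 4, above the other 3 T/T libraries. Krt36 was 57.1 normalized counts in T/T distal baseline replicate 2, below the other 3 T/T libraries.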

How the results depend on the processing

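Of 928 values of single keratins under another setting, 837 kept their direction and their side of the threshold, 21 were no longer called, 11 became called and 59 changed sign. The sign changes fell on 25 genotype differences and 0 WT differences, 0 involved a called value, and 55 started from a difference within 1 SE of 0. In WT distal against proximal crypts, the count of keratins called was 6 in every fit without 1 library, 3 with the sequencing request as a covariate and 1 within request 4149, where fewer libraries entered. In WT crypts after DSS, the count was 0 to 7 when 1 library was left out, while that of all genes ran from 1 to 9086. It was 1 (Krt7) with the replicate number as a block, which did not meet the pairing rule there. With DESeq2, 1 keratin was called in Mtg16-/- distal crypts at baseline (Krt23) and 1 in T/T tumors (Krt20), against 0 by limma. Apart from the WT DSS comparison, the replicate block changed 1 keratin call, that of Krt19 between the WT segments (adjusted p = 0.13 by limma). Leaving out 1 library gave 45 of the sign changes. In Mtg16-/- proximal crypts, the range of the log2 difference over these fits was -0.16 to 0.12 for Krt7, -0.66 to 0.085 for Krt80, -0.0091 to 0.25 for Krt18, -0.025 to 0.51 for Krt20 and -0.49 to 0.72 for Krt36. In Mtg16-/- distal crypts, the range was -0.023 to 0.16 for Krt7, -0.048 to 0.054 for Krt8, -0.19 to 0.65 for Krt80 and -0.12 to 0.035 for Krt19. In T/T proximal crypts, the range was -0.70 to 0.52 for Krt80. In T/T distal crypts, the range was -0.022 to 0.16 for Krt7, -0.013 to 0.094 for Krt8, -0.0068 to 0.79 for Krt80, -0.023 to 0.084 for Krt18, -0.18 to 0.039 for Krt20 and -0.26 to 0.066 for Krt36. In Mtg16-/- distal crypts after DSS, the range was -0.095 to 0.18 for Krt18, -0.042 to 0.28 for Krt19 and -0.32 to 0.38 for Krt20. In T/T distal crypts after DSS, the range was -0.33 to 0.089 for Krt7 and -0.22 to 0.29 for Krt20. In T/T tumors, the range was -0.36 to 0.023 for Krt23. Other settings changed the sign in Mtg16-/- distal crypts within request 4149 (Krt7 -0.088, Krt8 0.024, Krt19 0.014), within request 5094 (Krt80 -0.036) and with DESeq2 (Krt8 0.0046). The replicate block did so in T/T distal crypts (Krt7 -0.022, Krt8 -0.0066) and in Mtg16-/- crypts after DSS (Krt18 -0.011), and edgeR (0.062) and DESeq2 (0.054) did so for Krt20 in T/T crypts after DSS. With both tumors highest in squamous markers left out, chosen after seeing the data, the log2 differences of Krt7 (0.069), Krt18 (0.037), Krt19 (0.021) and Krt23 (0.057) changed sign. The causes were not tested.

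The number of all genes called moved with the setting as well. The replicate block changed it from 4833 to 2679 for WT DSS, 9 to 32 for Mtg16-/- proximal, 33 to 1 for Mtg16-/- distal, 32 to 151 for T/T proximal, 5 to 0 for T/T distal and 91 to 1271 for Mtg16-/- after DSS. DESeq2 called 200 genes in Mtg16-/- distal crypts, 727 after DSS, 53 in T/T distal crypts, 334 after DSS and 24 in T/T tumors. For the WT segments, 5824 genes passed in the main fit, 3189 with the request as a covariate, 2014 within request 4149 and 3540 within the null colony. Without the filter on low values, 2 genes passed in T/T proximal crypts instead of 32. Krt36 and Krt80 lay between 1.01 and 29.1 normalized counts in proximal crypts, and edgeR and DESeq2 were not run on the 2 proximal mutant tables, whose reads were not recovered.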

Other observations

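Keratins of stratified epithelium, which simple colon crypts normally lack, stood out among the other keratin genes and were chosen for mention after their values were seen. Krt5, the type II chain of basal cells, averaged 124 CPM in WT and 216 CPM in Mtg16-/- distal crypts of the null colony after DSS (ranges 104 to 161 and 129 to 340 CPM), but 0.12 CPM in WT and 0.17 CPM in T/T crypts of the T/T colony after the same treatment. Its type I partner Krt14 averaged 57.2 and 101 CPM in the null colony and 0.94 and 1.08 CPM in the T/T colony, and the activation-associated Krt6a averaged 92.8 and 161 CPM against 0.20 and 0.37 CPM. The colonies were sequenced in different requests after DSS, so colony and request cannot be told apart.

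In tumors, Krt5 ranged from 0.35 to 246 CPM in WT and from 0.25 to 243 CPM in T/T libraries, so that both genotypes held tumors with low and with high values. The hair-type chain Krt84 was 47.2 to 151 CPM in WT tumors and 17.3 to 32.9 CPM in T/T tumors, without overlap but not called by limma, edgeR or DESeq2, and 1.25 to 3.57 CPM in WT distal baseline crypts. On normalized counts, 2.53% of genes were lower in T/T tumors without overlap, and Krt84 too was chosen after its values were seen.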
